A study of Mus musculus with 9 samples.

Results

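The genes described here are the fast and slow isoforms of striated-muscle troponin and tropomyosin, the calcium switch of the thin filament. They are the 3 slow troponin genes Tnnc1, Tnni1 and Tnnt1, the 3 fast troponin genes Tnnc2, Tnni2 and Tnnt3, and the 3 tropomyosin genes Tpm1, Tpm2 and Tpm3. They were taken by name and not by a threshold on measured values, though with earlier results of these data known. They make 9 of the 24062 gene symbols in the count table. All 9 passed the low-count filter, as did 12989 genes in all.

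The data are RNA sequencing counts from whole gastrocnemius, a calf muscle, of 3-month-old mice on a mixed 129Sve/C57BL/6 background. There were 3 genotypes with 3 libraries each. The hetX753 mice (BubR1+/X753) and the hetL1002P mice (BubR1+/L1002P) each carry 1 altered copy of the gene for BubR1 beside a normal copy, and the wild-type (WT) mice carry neither allele. BubR1, encoded by Bub1b, is a mitotic checkpoint protein, and mutations in it cause mosaic variegated aneuploidy (MVA) in people. The labels give no treatment. The labels do not say whether each library came from its own animal, so the p-values measure the spread between these libraries, which may be technical.

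Muscle contracts when calcium binds troponin C, which moves troponin I off actin. Troponin T anchors this complex to tropomyosin, and tropomyosin then rolls aside and opens the myosin sites along the actin filament. Slow, oxidative fibres and fast, glycolytic fibres build the same switch from different genes: Tnnc1, Tnni1, Tnnt1 and Tpm3 in slow fibres, Tnnc2, Tnni2, Tnnt3 and Tpm1 in fast fibres, and Tpm2 in either kind. Mouse gastrocnemius is a mostly fast muscle.

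Library totals lay between 19768149 and 33977252 counts. The gene for BubR1 was close to the detection limit, with 8, 8 and 5 counts in hetX753 libraries and 10, 9 and 2 in hetL1002P libraries, against 21, 11 and 16 in WT libraries. Muscle markers were high in all 9 libraries: creatine kinase Ckm lay between 18512 and 27061 CPM (counts scaled to a common library size with TMM factors) and the fast myosin Myh4 between 44212 and 61648 CPM. On the first principal component of log2 CPM, which held 39.7% of the variance, WT library 3 lay at -47.5 and hetL1002P library 3 at -32.5, and the other 7 libraries lay between -9.52 and 28.8. The fold changes of the fast troponins, the slow-to-fast ratios and the correlations among members are given with and without these 2 libraries.

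The gene starts of the 3 slow troponins and of fast troponin C are shown first because the members of each set moved together across libraries, as described further on. Each sequence is the 250 bases before a RefSeq gene start on GRCm38.p6, the build of the counts (mm10), read 5′ to 3′ on the gene's own strand. The gene loci printed further on are from GENCODE and their ends can differ from the RefSeq starts. The Tnni1 and Tnnt1 windows lie inside those loci, and the Tnnc2 window overlaps its own. Capitals mark matches to 4 motifs searched on both strands: the E-box CANNTG, the MCAT element CATTCC or its reverse complement GGAATG, the TATA box TATAAA and the MEF2 site. Matching by symbol found an entry for 7 of the 9 genes. The Tnnc1 window lies on chromosome 14 at chr14:31208062-31208311 (plus strand), the Tnni1 window on chromosome 1 at chr1:135799171-135799420 (plus strand), the Tnnt1 window on chromosome 7 at chr7:4515976-4516225 (minus strand), and the Tnnc2 window on chromosome 2 at chr2:164779735-164779984 (minus strand).
Tnnc1: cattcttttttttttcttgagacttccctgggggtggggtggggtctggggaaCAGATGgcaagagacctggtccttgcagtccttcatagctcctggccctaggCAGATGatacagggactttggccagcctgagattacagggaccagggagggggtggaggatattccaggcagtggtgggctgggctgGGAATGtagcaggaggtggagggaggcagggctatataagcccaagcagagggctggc
Tnni1: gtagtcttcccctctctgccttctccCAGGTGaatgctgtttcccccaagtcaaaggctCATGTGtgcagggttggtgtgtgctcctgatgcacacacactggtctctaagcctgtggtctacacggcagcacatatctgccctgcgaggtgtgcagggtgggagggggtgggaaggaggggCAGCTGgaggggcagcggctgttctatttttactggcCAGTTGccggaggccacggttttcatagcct
Tnnt1: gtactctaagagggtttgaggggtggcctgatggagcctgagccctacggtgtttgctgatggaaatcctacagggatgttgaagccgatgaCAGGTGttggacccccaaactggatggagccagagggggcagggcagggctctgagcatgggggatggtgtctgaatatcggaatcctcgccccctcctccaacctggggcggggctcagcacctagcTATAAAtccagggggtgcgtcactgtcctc
Tnnc2: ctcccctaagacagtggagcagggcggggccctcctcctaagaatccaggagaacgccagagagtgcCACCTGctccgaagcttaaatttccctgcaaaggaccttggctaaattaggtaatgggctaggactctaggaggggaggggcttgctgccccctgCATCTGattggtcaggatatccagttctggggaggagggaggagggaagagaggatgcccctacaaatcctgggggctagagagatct

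The Tnnt1 window held a TATAAA whose first base lay 30 bases before the start, and an E-box, CAGGTG, 158 bases before it. The Tnnc1 window held an MCAT element 58 bases before the start and E-boxes, CAGATG each, at 197 and 145 bases. In the Tnni1 window 4 E-boxes were found, the CAGCTG among them at 68 bases. The window of a further RefSeq start of Tnni1, chr1:135799261-135799510, is not printed and held 2 E-boxes, with CAGCTG at 158 bases. The Tnnc2 window held CACCTG at 183 bases and CATCTG at 88 bases. Among the other members with an entry, Tpm1 held an MCAT element 56 bases before its start. Of 32851 RefSeq windows of this length, 66.2% held a CANNTG, 12.6% the MCAT element, 12.4% TATAAA and 2.9% the MEF2 site. No window of the 7 genes held the MEF2 site. These matches describe letters in the windows and no binding was measured.

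The fast genes and Tpm2 were among the most abundant messages in the muscle. By mean CPM over the 9 libraries, Tpm1 ranked 4, Tnnt3 ranked 5, Tnnc2 ranked 8, Tnni2 ranked 10 and Tpm2 ranked 18 of the 12989 genes, whereas Tpm3, the highest of the slow set, ranked 391 and Tnni1, the lowest, ranked 860. Together the 9 genes took between 8.22% of all counts (hetX753 library 3) and 12.4% (WT library 3). Divided by the median length of their coding transcripts, the level of Tnnt3 was the highest in each genotype. That of Tpm2 lay below those of the fast genes and above those of the slow genes. Per kilobase, Tnnt3 averaged 25460 CPM in hetX753 libraries, 27542 in hetL1002P libraries and 35033 in WT libraries. Tnnc2 averaged 19427, 22164 and 30687 CPM per kilobase in the same groups. By this length Tnnt3 stood above Tnnc2, and Tnnc2 above Tnni2, in every library. Tnni2 averaged 14759, 16490.0 and 22428 CPM per kilobase. Tpm1, at 19219, 22582 and 20173 CPM per kilobase, overlapped Tnni2 within each genotype, so that these neighbours were not separated by more than their spread. The place of Tpm1 rests on the length chosen, since Tpm1 was 4866, 5718 and 5108 CPM per kilobase of all its annotated exons joined. So does the order of Tnnt3 and Tnnc2. Per kilobase of joined exons Tnnc2 averaged 16998, 19394 and 26851 CPM, above Tnnt3 at 16292, 17625 and 22418 CPM. By that length Tnnc1 (144, 140 and 172) also averaged above Tnnt1 (112, 108 and 119). Tpm2 averaged 2491, 3154 and 3818 CPM per kilobase of its median coding transcript. The slow genes lay far lower, with Tnnt1 at 264, 254 and 282 and Tnnc1 at 208, 202 and 248.8 CPM per kilobase. Tnni1 and Tpm3 followed at 138, 125 and 140, and at 150, 112 and 125 CPM per kilobase. The ranges of Tnni1 and Tpm3 overlapped within each genotype.

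**Figure D1:**
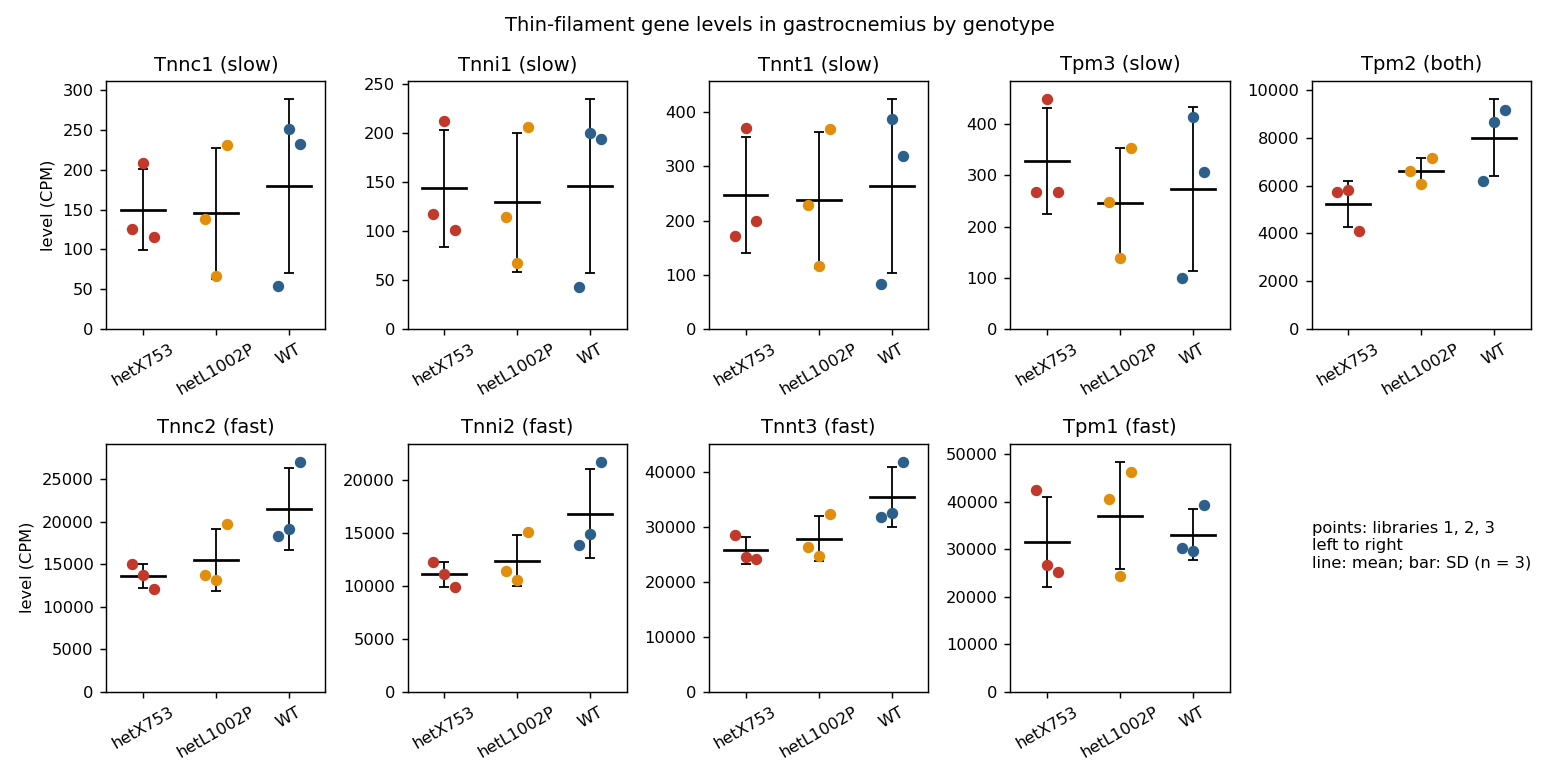
Level of each of the 9 genes in CPM (vertical axis, linear from 0, a scale of its own in each panel) by genotype. Points are libraries 1 to 3 from left to right, the line is the mean and the bar the SD (n = 3). The 3 fast troponins and Tpm2 lie lower in hetX753 than in every WT library, while each slow gene spreads widely within WT.

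Slow troponin C, encoded by Tnnc1 (chr14:31208312-31211729, plus strand), is the calcium sensor of slow fibres and of the heart. It had 125, 209 and 116 CPM in hetX753 libraries and 139, 67.0 and 231 CPM in hetL1002P libraries, against 53.7, 252 and 232.5 CPM in WT libraries. The lowest and the highest of the 9 values were both WT. Tnni1 (chr1:135779434-135810989, plus strand), the slow inhibitory subunit, had 118, 212 and 101.5 CPM in hetX753 libraries, 114, 67.0 and 207 CPM in hetL1002P libraries, and 43.0, 200.2 and 194 CPM in WT libraries. Tnnt1 (chr7:4504570-4516382, minus strand), the slow tropomyosin anchor, had 172, 370.2 and 199 CPM in hetX753 libraries, 228, 116.7 and 368 CPM in hetL1002P libraries, and 82.0, 388 and 319 CPM in WT libraries. WT library 1 and hetL1002P library 2 were low for all 3 genes, and hetX753 library 2, hetL1002P library 3 and WT libraries 2 and 3 were high. Tpm3 (chr3:90072649-90100902, plus strand), the slow tropomyosin, followed a similar order, with 269, 449 and 267 CPM in hetX753 libraries, 247, 138 and 353 CPM in hetL1002P libraries, and 99.6, 415 and 306 CPM in WT libraries. The annotation holds copies of Tpm3, Tpm3-rs7 and Tpm3-rs2, which are not in the count table, so its level is uncertain where reads could be shared. The groups overlapped for each of the 4 slow genes in each comparison.

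The slow genes varied more between libraries of 1 genotype than nearly all others. The highest library held 4.69 times the level of the lowest for Tnnc1, 4.93 times for Tnni1, 4.73 times for Tnnt1 and 4.51 times for Tpm3, with WT library 1 lowest each time. Within genotypes the SD of log2 CPM was 0.93 for Tnnc1, 0.93 for Tnni1, 0.92 for Tnnt1 and 0.78 for Tpm3, against a median of 0.18 over the 6840 genes averaging at least 10 CPM. These SDs stood at percentiles 99.4 to 99.6 of those genes. Fast troponins varied far less, with SDs of 0.27 for Tnnc2 (percentile 79.7), 0.27 for Tnni2 (percentile 79.0) and 0.19 for Tnnt3 (percentile 54.5). Tpm1 stood between the sets at 0.39 (percentile 94.3). In whole muscle, fewer slow fibres and less slow RNA in each fibre cannot be told apart. Over the 9 libraries the slow genes' log2 levels had Pearson r between -0.677 (Tnni1) and -0.74 (Tnnt1) with the log of the library total, whose part in this spread was not tested.

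Fast troponin C, encoded by Tnnc2 (chr2:164777161-164779967, minus strand), had 14960.4, 13773 and 12062 CPM in hetX753 libraries and 13709.7, 13126 and 19708.5 CPM in hetL1002P libraries, against 18340.1, 19102 and 27000.4 CPM in WT libraries. All 3 hetX753 libraries lay below all 3 WT libraries. In the annotation, exons of Ube2c on the opposite strand overlap those of Tnnc2 by 592 of the 800 exon bases of Tnnc2, and Ube2c had 4 to 17 counts per library. The strand setting is not known and reads in the shared bases may have been left out of Tnnc2, so its level and its place per kilobase are uncertain. Tnni2 (chr7:142441808-142444410, plus strand), the fast inhibitory subunit, had 12252, 11104 and 9853 CPM in hetX753 libraries, 11436, 10587 and 15079.7 CPM in hetL1002P libraries, and 13849.6, 14930.5 and 21682 CPM in WT libraries. Tnnt3 (chr7:142498836-142516009, plus strand), the fast anchor of tropomyosin, had 28608, 24484 and 24279.7 CPM in hetX753 libraries, 26399, 24819 and 32483 CPM in hetL1002P libraries, and 31931, 32664 and 41869.8 CPM in WT libraries. WT library 3 was highest for all 3 fast troponins, hetX753 library 3 was lowest, and hetL1002P library 3 stood above its own group.

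Tpm2 (chr4:43514711-43523765, minus strand), the beta tropomyosin, had 5726, 5836 and 4116 CPM in hetX753 libraries, 6629.8, 6052 and 7172 CPM in hetL1002P libraries, and 6179.9, 8677 and 9175 CPM in WT libraries. The hetX753 values lay below every value of the other 2 genotypes. Tpm1 (chr9:67022590-67049406, minus strand), the alpha tropomyosin of fast fibres and heart, had 42578, 26801 and 25296 CPM in hetX753 libraries, 40576, 24428 and 46233 CPM in hetL1002P libraries, and 30362, 29672 and 39336 CPM in WT libraries. Its high libraries were hetX753 library 1, hetL1002P libraries 1 and 3 and WT library 3, so that the groups overlapped fully. The counts sum all its isoforms, including those of cells other than muscle fibres.

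In hetX753 against WT muscle, the fast troponins and Tpm2 had the lowest fold changes, WT levels being 1.38 (Tnnt3) to 1.58 (Tnnc2) times those of hetX753, but no member passed the test. With edgeR's quasi-likelihood test and Benjamini-Hochberg adjustment over the 12989 genes, 0 of the 9 genes were called at an adjusted p under 0.05, where 0.508% of all genes were. The log2 fold change was -0.66 for Tnnc2 (SE 0.20, 95% interval -1.10 to -0.22, edgeR adjusted p = 0.136), -0.60 for Tnni2 (SE 0.20, adjusted p = 0.152) and -0.46 for Tnnt3 (SE 0.15, adjusted p = 0.161). Tpm2 gave -0.62 (SE 0.18, 95% interval -1.02 to -0.22, adjusted p = 0.134). These are the 4 members at an unadjusted p under 0.05, which 9.69% of all genes reached with a lower level in hetX753. They are also the 4 members whose hetX753 libraries all lay below the WT libraries, as for 15.8% of all genes. The slow genes and Tpm1 had log2 fold changes of -0.26 (Tnnc1, 95% interval -1.50 to 0.98), -0.02 (Tnni1), -0.09 (Tnnt1), 0.26 (Tpm3, 95% interval -0.78 to 1.31) and -0.07 (Tpm1, 95% interval -0.64 to 0.50). The intervals of the slow genes were wide enough to hold the fold changes of the fast troponins. Of the 9 fold changes 8 were below 0, as were 49.6% of those of all genes, and the median over members was -0.26 against 0.003 over all genes. With library totals alone Tnni1 (0.12), Tnnt1 (0.046) and Tpm1 (0.051) lay above 0.

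A call for Tnnc2 turned on the tool and on 1 library, and a call for Tpm2 on the tool. DESeq2, which called 5.63% of the genes it tested in this comparison, called Tnnc2 (log2 fold change -0.67, DESeq2 adjusted p = 0.0362) and Tpm2 (-0.63, DESeq2 adjusted p = 0.0315), and limma-voom called 0 of the 9 and 0.423% of all genes. Without hetL1002P library 3, whose genotype is not in this comparison but shares its estimate of the spread, edgeR called Tnnc2 (adjusted p = 0.0388) and 5.07% of all genes. Without WT library 3 alone the log2 fold change of Tnni2 was -0.38 (edgeR adjusted p = 0.387). Without WT library 3 and hetL1002P library 3 together, when edgeR called 2.58% of all genes, the log2 fold change of Tnnc2 was -0.46 (edgeR adjusted p = 0.0332), that of Tnni2 -0.38 (adjusted p = 0.0607), that of Tnnt3 -0.32 (adjusted p = 0.0679) and that of Tpm2 -0.51 (adjusted p = 0.176). Removing each library's trend with transcript length and GC content moved the fold changes to -0.29 for Tnnc2 (edgeR adjusted p = 0.101), -0.22 for Tnni2 (adjusted p = 0.174) and -0.17 for Tnnt3 (adjusted p = 0.246), and that of Tpm2 to -0.53 (adjusted p = 0.111). The median coding transcript held 700 bases for Tnnc2, 750 for Tnni2 and 1013 for Tnnt3. The slow troponins were as short, with 721 (Tnnc1), 1038 (Tnni1) and 934 (Tnnt1). Log2 levels of the slow troponins had Pearson r of -0.468 (Tnnc1), -0.388 (Tnni1) and -0.36 (Tnnt1) with the first principal component over the 9 libraries. Those of the fast troponins had r of -0.975 (Tnnc2), -0.965 (Tnni2) and -0.959 (Tnnt3) with it. The part of that component in these differences was not tested.

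**Figure D2:**
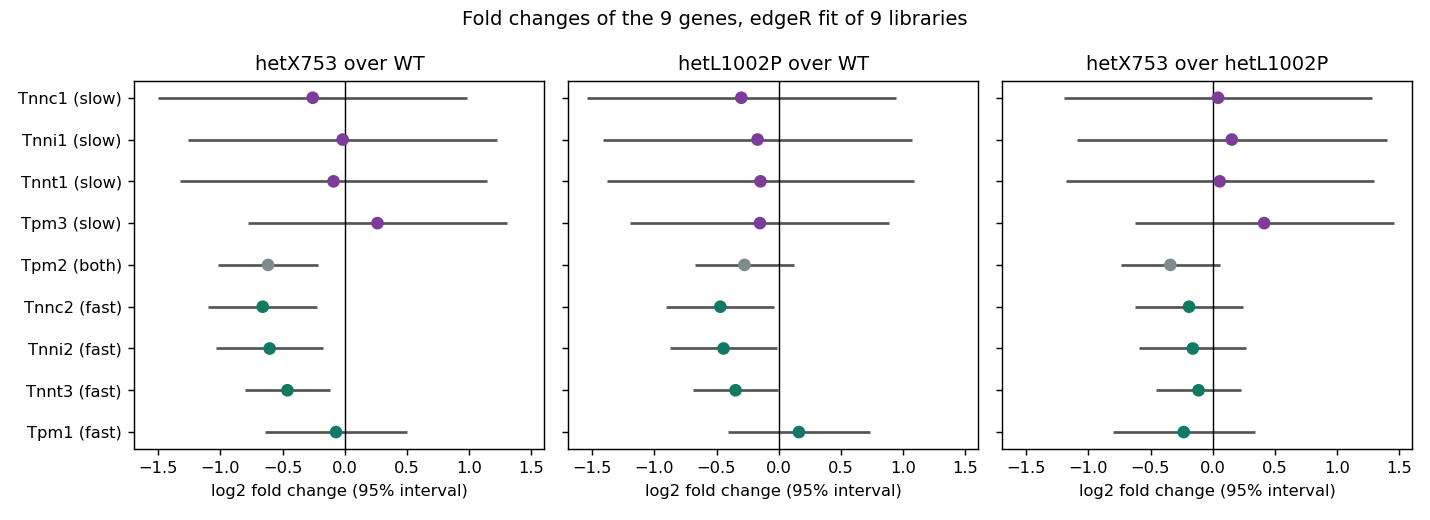
Log2 fold change (horizontal axis) of each gene in the 3 comparisons, with the 95% interval from the edgeR fit of 9 libraries as a line. The intervals of Tnnc2, Tnni2, Tnnt3 and Tpm2 lie below 0 for hetX753 over WT, those of the slow genes are widest and cross 0 throughout, and no gene passed the adjusted threshold.

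In hetL1002P against WT muscle the fast troponins again had the lowest fold changes, at smaller sizes and with groups that overlapped. edgeR called 0 of the 9 genes, as it called 0% of all genes. DESeq2, with 0.0385% of all genes called, and limma-voom, with 0.0154%, also called 0 members. No member's hetL1002P libraries all lay below the WT libraries, where 3.77% of all genes did. The log2 fold change was -0.47 for Tnnc2 (SE 0.20, 95% interval -0.91 to -0.03), -0.44 for Tnni2 (SE 0.19) and -0.35 for Tnnt3 (SE 0.15), each with an edgeR adjusted p of 0.5795. These 3 members reached an unadjusted p under 0.05, as 2.57% of all genes did with a lower level. Tpm2 gave -0.28 and Tpm1 0.16, and the slow genes gave -0.30 (Tnnc1), -0.17 (Tnni1), -0.15 (Tnnt1) and -0.15 (Tpm3). Of the 9 fold changes 8 were below 0, as were 48.1% of those of all genes, and the median over members was -0.28 against 0.01 over all genes. Libraries of the same number in these 2 genotypes deviated together, with correlations of their deviations of 0.285, 0.36 and 0.516. With the replicate number as a block and these 2 genotypes alone, edgeR called Tnnc2 (adjusted p = 0.0298), Tnni2 (adjusted p = 0.033) and Tnnt3 (adjusted p = 0.0402), where 5.01% of all genes were called. Without WT library 3 the fold changes were -0.27 (Tnnc2), -0.22 (Tnni2) and -0.21 (Tnnt3), each with an edgeR adjusted p of 0.9994. Without hetL1002P library 3 they were -0.68, -0.61 and -0.47 (edgeR adjusted p = 0.0915, 0.0934 and 0.0944). Without both libraries they were -0.48, -0.38 and -0.33 (edgeR adjusted p = 0.118, 0.123 and 0.129). With the length and GC trend removed their fold changes were -0.16, -0.12 and -0.11, and those of Tnni1 (0.073) and Tnnt1 (0.0795) lay above 0. This comparison and the one of hetX753 share the WT libraries, so the likeness of their fold changes is no separate observation.

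Between the carriers, hetX753 against hetL1002P, 0 of the 9 genes were called by edgeR, DESeq2 or limma-voom, which called 0.115%, 1.06% and 0.123% of all genes in that order. No member reached an unadjusted p under 0.05, as 8.24% of all genes did. The lowest fold change was that of Tpm2 (log2 -0.34, SE 0.18, edgeR adjusted p = 0.696), the member whose hetX753 libraries all lay below the hetL1002P libraries, as for 6.98% of all genes. The highest was that of Tpm3 (log2 0.41, 95% interval -0.63 to 1.46). For the fast troponins the fold changes were -0.19 (Tnnc2, 95% interval -0.63 to 0.24), -0.16 (Tnni2) and -0.11 (Tnnt3), and without WT library 3 and hetL1002P library 3 they were 0.02, 0.01 and 0.01. Of the 9 fold changes 5 were below 0, as were 52.6% of those of all genes, and the median over members was -0.11 against -0.01.

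Slow messages stood at 0.225% to 1.64% of their fast counterparts. Per transcript length, Tnnc1 stood at 0.814%, 1.47% and 0.931% of Tnnc2 in hetX753 libraries and 0.982%, 0.496% and 1.14% in hetL1002P libraries, against 0.284%, 1.28% and 0.836% in WT libraries. Tnni1 stood at 0.695%, 1.38% and 0.744% of Tnni2 in hetX753, 0.723%, 0.457% and 0.991% in hetL1002P and 0.225%, 0.969% and 0.645% in WT. For Tnnt1 over Tnnt3 the values were 0.652%, 1.64% and 0.889% in hetX753, 0.936%, 0.51% and 1.23% in hetL1002P and 0.279%, 1.29% and 0.827% in WT. Tpm3 over Tpm1 followed with 0.473% to 1.26% in hetX753, 0.425% to 0.573% in hetL1002P and 0.246% to 1.05% in WT. The genotypes overlapped for all 4 pairs. On the log2 scale the mean ratio in hetX753 exceeded that in WT by 0.62 for troponin C, 0.78 for troponin I, 0.56 for troponin T and 0.55 for tropomyosin, where the SD within genotypes was 0.79, 0.77, 0.85 and 0.74. In hetL1002P the differences from WT were 0.29, 0.41, 0.33 and -0.15. WT library 1 gave the lowest of the 9 ratios in each pair. Without it the hetX753 differences from WT were 0.0029 (troponin C), 0.18 (troponin I), -0.070 (troponin T) and -0.0083 (tropomyosin), and the hetL1002P differences were -0.33, -0.20, -0.30 and -0.70. Without WT library 2 they were 1.09, 1.23, 1.03 and 1.04 for hetX753 and 0.75, 0.86, 0.80 and 0.34 for hetL1002P. The size of the differences thus rested on single WT libraries. So did their sign, except for troponin C and troponin I in hetX753. These stayed above 0 with each WT library left out, troponin C only just (0.0029 without WT library 1). Without WT library 3 and hetL1002P library 3, a choice made after the data were seen, the differences from WT were 0.78, 0.94, 0.71 and 0.62 for hetX753 and 0.21, 0.30, 0.21 and -0.20 for hetL1002P.

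**Figure D3:**
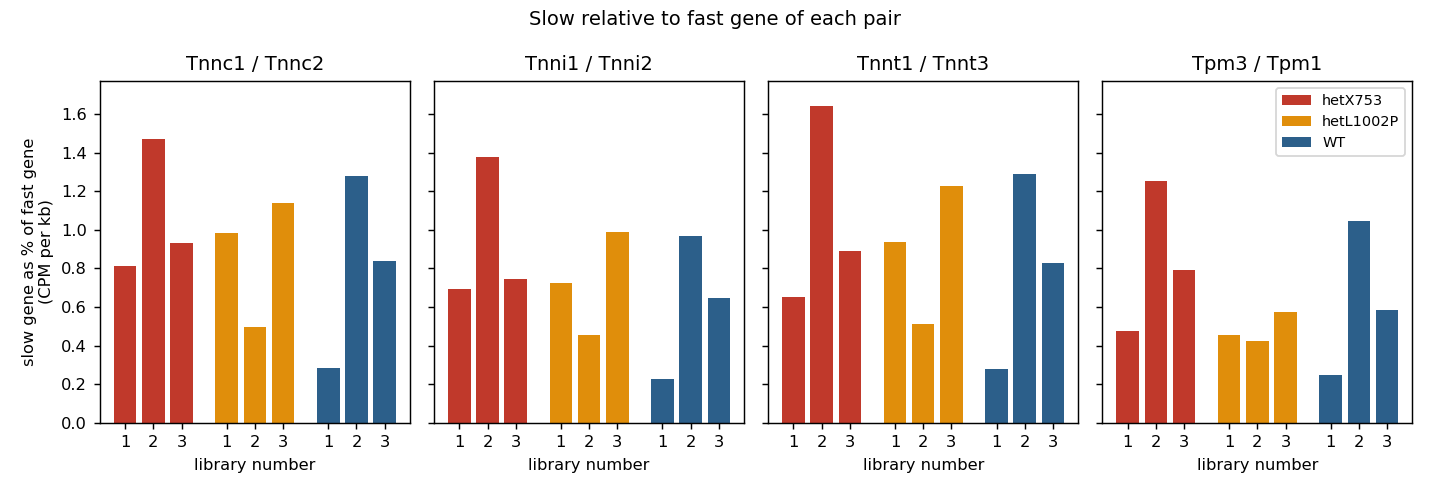
Level of each slow gene as a percent of its fast counterpart (vertical axis, CPM per kilobase, linear from 0), 1 bar per library and colours by genotype. The bars range from 0.225% to 1.64%, library 2 of hetX753 is the highest in each pair, WT library 1 the lowest, and the genotypes overlap.

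Within a set the proportions of the troponin subunits varied less than their levels. Per length, Tnni2 stood at 0.705 to 0.779 of Tnnc2 over the 9 libraries (coefficient of variation 3.27%), and Tnnt3 at 1.07 to 1.39 of Tnnc2 (8.33%). Among the slow genes, Tnni1 stood at 0.552 to 0.706 of Tnnc1 (9.33%) and Tnnt1 at 1.06 to 1.37 of Tnnc1 (9.41%), although Tnnc1 itself ranged over 4.69 times. The tropomyosins followed troponin C less closely, with coefficients of variation of 17.6% for Tpm3 over Tnnc1, 14.5% for Tpm2 over Tnnc2 and 26.0% for Tpm1 over Tnnc2. Tpm1 relative to Tnnc2 was 1.21, 0.830 and 0.894 in hetX753 libraries and between 0.793 and 1.26 in hetL1002P libraries, against 0.706, 0.662 and 0.621 in WT libraries. All 6 carrier libraries lay above the WT libraries in this ratio. In hetX753 libraries Tnni2 over Tnnc2 (0.7525 to 0.7643) and Tnnt3 over Tnnc2 (1.228 to 1.391) also lay above every WT library. So did Tnni1 over Tnnc1 (0.6095 to 0.706) and Tpm3 over Tnnc1 (0.7053 to 0.7608). The hetL1002P libraries overlapped WT in these ratios, and hetX753 overlapped WT in the remaining ratios. Separation of hetX753 from WT was thus not particular to Tpm1. Tpm1 over Tnnc2 is 1 of 8 ratios computed and was singled out after its values were seen, so it is given with no test.

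Pearson correlations of log2 CPM over the 9 libraries, which share depth and genotype and are given as description, showed the same 2 blocks. The slow troponins correlated at 0.984 to 0.987 with each other and at 0.947 to 0.965 with Tpm3. The fast troponins correlated at 0.987 to 0.993 with each other, at 0.802 to 0.845 with Tpm2 and at only 0.494 to 0.532 with Tpm1. Across the blocks, slow and fast troponins correlated at 0.244 to 0.462. Over the 7 libraries other than WT library 3 and hetL1002P library 3, the slow troponins correlated at 0.981 to 0.987 with each other and at 0.973 to 0.989 with Tpm3. In those 7 libraries the fast troponins correlated at 0.967 to 0.99 with each other, at 0.671 to 0.793 with Tpm2 and at 0.209 to 0.344 with Tpm1, and slow and fast troponins at -0.121 to 0.159. Among 6665 other named genes averaging at least 10 CPM, the gene closest to each of the 4 slow members was Myl2, the slow and ventricular regulatory myosin light chain, at r = 0.989 (Tnnc1), 0.965 (Tnni1), 0.983 (Tnnt1) and 0.924 (Tpm3). Myoz2, a Z-disc protein of slow fibres, was the third for Tnnc1 (r = 0.939) and for Tnnt1 (r = 0.925). Smtnl1 was the second for Tnnc1 (r = 0.94) and Tnni1 (r = 0.937), and Idh2, a mitochondrial enzyme, was the second for Tnnt1 (r = 0.938) and Tpm3 (r = 0.90) and the third for Tnni1 (r = 0.897). The slow myosin heavy chain Myh7 followed them less closely, at 0.65 (Tnnc1), 0.687 (Tnni1), 0.733 (Tnnt1) and 0.78 (Tpm3).

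Fast troponin C was closest to Chmp4b (r = 0.995), Pvalb (r = 0.994), the calcium buffer of fast fibres, and Ercc1 (r = 0.993). Tnni2 was closest to Gstp1, Cox6a2 and Cox8a (r = 0.991 each), of which the last 2 are cytochrome oxidase subunits, and Tnnt3 to the muscle elongation factor Eef1a2 (r = 0.995) and the ribosomal protein genes Rpl36al and Rps15a (r = 0.987 each). Tpm2 was closest to Ptms (r = 0.946), Dmwd (r = 0.94) and Use1 (r = 0.939).

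Tpm1 followed neither block, and the 2 genes closest to it were its neighbours on chromosome 9. Rps27l, a ribosomal protein S27-like gene 73067 bases away, had r = 0.99 with Tpm1, and Lactb, a mitochondrial protein gene 47105 bases away, had r = 0.953. Rps27l had 82.8, 52.7 and 47.2 CPM in hetX753 libraries and 75.5, 44.2 and 99.5 CPM in hetL1002P libraries, against 58.4, 57.2 and 75.9 CPM in WT libraries. Lactb had 27.1, 19.5 and 18.4 CPM in hetX753 libraries, 28.8, 19.7 and 33.9 CPM in hetL1002P libraries, and 22.6, 24.1 and 26.0 CPM in WT libraries. Like Tpm1, they were high in hetX753 library 1 and in hetL1002P libraries 1 and 3. Over the 7 libraries without WT 3 and hetL1002P 3, r with Tpm1 was 0.993 for Rps27l and 0.944 for Lactb. The other 4 tested genes within 200 kilobases of Tpm1 did not follow it, with r of 0.121 for Tln2, 0.257 for Rab8b, -0.009 for Aph1c and -0.583 for Gm19299. The third gene by likeness to Tpm1 was Nfkb2 (r = 0.885).

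**Figure D4:**
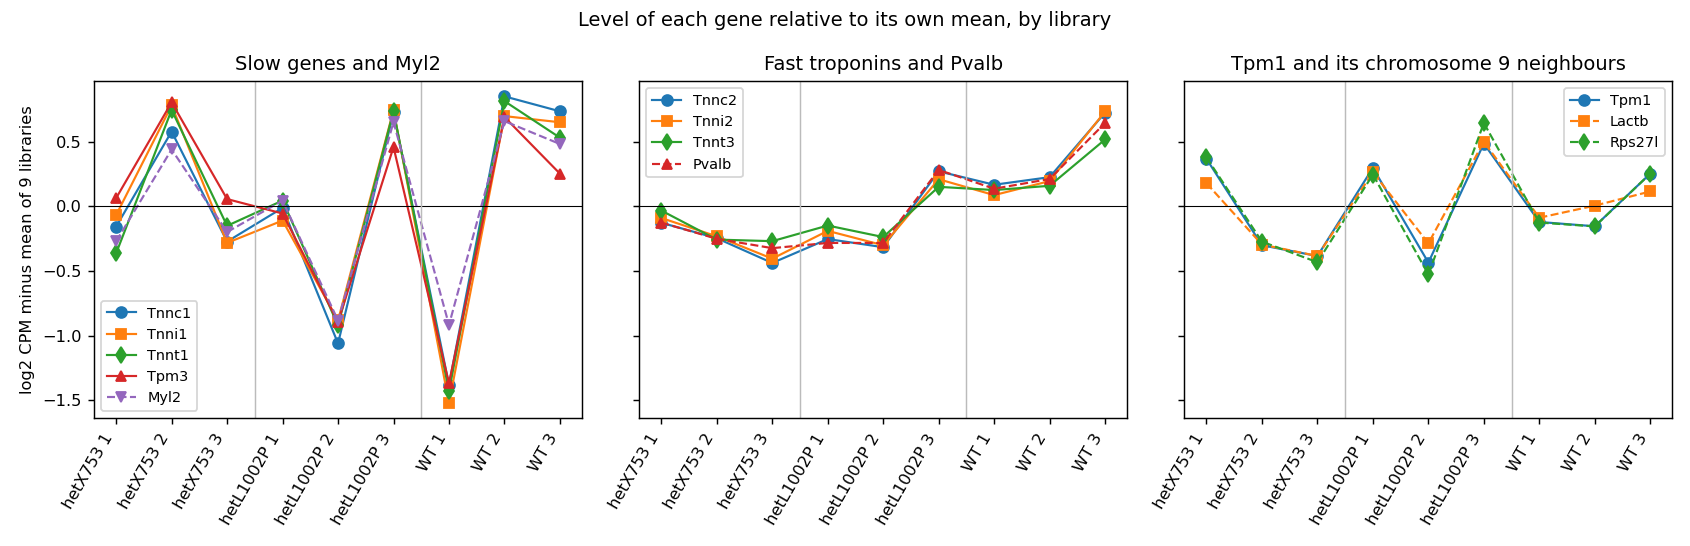
Log2 CPM of each gene minus its own mean over the 9 libraries (vertical axis), by library (horizontal axis), with genotypes parted by grey lines. The slow genes and Myl2 (left) move together with WT library 1 lowest, the fast troponins and Pvalb (middle) peak in WT library 3, and Tpm1 (right) moves with Rps27l and Lactb.

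High r with neighbours was also found beside the fast troponins, for which such values were common among other genes. Among the 6665 named genes, Mylpf at r = 0.965 with Tnni2 held place 119 and Myoz1 at 0.931 place 491. With Tnnc2, Myl1 at 0.938 held place 444, Casq1 had r = 0.901 and Atp2a1 0.706. Other fast-fibre genes did not follow Tnnc2. The fast myosins Myh4, Myh1 and Myh2 had r of -0.536, -0.493 and -0.174 with it. Mybpc2 had -0.179, Actn3 -0.132 and Mylk2 0.028. Rps27l and Lactb held places 1 and 2 for Tpm1. Of the tested genes within 200 kilobases, the 8 around Tnni2 had a median r of 0.854 with it, led, after Tnnt3 itself, by Mrpl23 (0.961), Ctsd (0.934) and Lsp1 (0.932), and the 9 around Tnnt3 a median of 0.703. The 13 around Tnnc2 had a median of 0.267, with Neurl2 at 0.95 and Dnttip1 at 0.935. For the slow genes the medians were lower, from -0.115 (Tnnc1) to 0.269 (Tnni1), and the highest single r was 0.62, beside Tnnt1. Troponin I and T genes lie in pairs along the mouse genome: Tnni2 and Tnnt3, a fast pair, are 54425 bases apart on chromosome 7, the cardiac Tnni3 and slow Tnnt1 are 1922 bases apart on chromosome 7, and the slow Tnni1 and cardiac Tnnt2 are 25364 bases apart on chromosome 1. Tnni2 and Tnnt3 correlated at 0.987 over the libraries. Tnnt2 had r = 0.251 with Tnni1 and 71 to 128 counts per library, and Tnni3 was nearly silent beside Tnnt1, with 1 to 7 counts. Tpm4, the tropomyosin of non-muscle cells and of repairing fibres, had 422 to 858 counts. Of these 3 further genes 2 were tested and 0 called by edgeR, DESeq2 or limma-voom in any comparison, 1 of them (Tnnt2, log2 fold change -0.49, hetX753 against WT, edgeR adjusted p = 0.189) at an unadjusted p under 0.05.

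The rest of the thin filament showed no shared direction. Of 14 genes for actin, nebulin, the tropomodulins and leiomodins and their partners, edgeR and limma-voom called 0 in hetX753 against WT, 6 reached an unadjusted p under 0.05, and DESeq2 called 5 (Nrap, Neb, Lmod3, Acta1 and Klhl40). DESeq2 called 5.63% of all genes, and 9.69% of all genes reached that unadjusted p with a lower level in hetX753. The 6 count both directions, for which the share of all genes is not given here. Their median log2 fold change was 0.01, against 0.003 over all genes. Nrap, which takes part in myofibril assembly, had 1874, 2043 and 1966 CPM in hetX753 libraries against 1191, 1279.8 and 1272 CPM in WT libraries (log2 0.65, edgeR adjusted p = 0.0581). Skeletal actin, Acta1, had 34788, 39173 and 36165 CPM in hetX753 libraries against 45621, 49888 and 59152 CPM in WT libraries (log2 -0.49, edgeR adjusted p = 0.126). Nebulin, Neb, which sets thin filament length, had 4156, 4657 and 4008 CPM in hetX753 libraries against 2988, 2686.5 and 1523 CPM in WT libraries (log2 0.83, edgeR adjusted p = 0.127). The hetX753 libraries thus lay below all WT libraries for Acta1, as for 15.8% of all genes. They lay above them for Nrap and Neb, for which the share of all genes is not given here. Of the 14 in hetL1002P against WT, 0 were called by the 3 tools and 2 reached an unadjusted p under 0.05, with Tmod1 at 0.41, Neb at 0.53 and Acta1 at -0.25. The 2 were Tmod1 and Neb, both with a higher level in hetL1002P, for which the share of all genes is not given here. The 2.57% of all genes that reached that p with a lower level is no reference for them. Between the carriers edgeR called 0 and DESeq2 1 (Nrap, log2 0.47 in edgeR), with Lmod3 at -0.47 and Kbtbd13 at -0.38. An unadjusted p under 0.05 was reached by 2 of the 14 and by 8.24% of all genes.

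Other fibre-type genes also held no edgeR call. Of 8 slow-fibre partners, 0 were called by the 3 tools in any comparison, and 1, 0 and 1 reached an unadjusted p under 0.05 in hetX753 against WT, hetL1002P against WT and hetX753 against hetL1002P. These counts and those below are in either direction, which 8.24% of all genes reached between the carriers. In the comparisons with WT only the shares with a lower level are given, 9.69% for hetX753 and 2.57% for hetL1002P. Those shares are no reference for genes with a higher level, such as Csrp3 and the regulators named below for these comparisons. Csrp3, a Z-disc LIM protein, had 217, 152 and 212 CPM in hetX753 libraries against 42.6, 90.8 and 91.3 CPM in WT libraries (log2 1.38, edgeR adjusted p = 0.143), a pattern that the slow troponins did not share. Of 12 fast-fibre partners, edgeR called 0 in each comparison, with 4, 3 and 4 at an unadjusted p under 0.05, and the median log2 fold change was -0.16 in hetX753 against WT and -0.18 in hetL1002P against WT. Their direction was mixed. In hetX753 against WT 7 of the 12 were below 0, as were 49.6% of all genes. In hetL1002P against WT 9 of the 12 were, as were 48.1% of all genes. Pvalb had 13654, 12519.9 and 11908 CPM in hetX753 libraries against 16372, 17249.5 and 23292 CPM in WT libraries (log2 -0.58, edgeR adjusted p = 0.151), and Myl1 and Casq1 gave -0.39 and -0.38. For hetL1002P against WT, Myh1 gave 0.46, Pvalb -0.42 and Myoz1 -0.36. Between the carriers, DESeq2 called 1 of the 12, Actn3 (log2 0.32 in edgeR), while Myh2 gave -0.77 and Mylk2 0.56. Of 16 regulators of fibre type, edgeR, DESeq2 and limma-voom called 0, with 3, 3 and 2 at an unadjusted p under 0.05. In hetX753 against WT, Nfatc2 (0.46), Ppargc1a (0.56) and Sox6 (0.35), a repressor of slow genes, had the smallest p. For hetL1002P they were Six4 (0.55), Tead1 (0.38), the factor that binds MCAT elements, and Mef2c (0.33). Of the 16, only 2 lay below 0 in each comparison with WT, with medians of 0.16 and 0.28 against 0.003 and 0.01 over all genes.

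Because Tnnc1 and Tpm1 serve the heart as well, and tropomyosins serve smooth muscle and fibroblasts, markers of those cells were measured beside them. Skeletal muscle markers (8 genes, Acta1 and Myh4 among them) summed to 140874 to 153509 CPM in hetX753 libraries and 151510.3 to 160839 CPM in hetL1002P libraries, against 161468 to 166428 CPM in WT libraries. This sum was highest in WT, but its most abundant genes weigh most in it and the single markers did not all follow. Ttn had 6040, 6750 and 6197 CPM in hetX753 libraries against 5911, 5328 and 2594 CPM in WT libraries. In hetX753 against WT, 5 of the 8 fold changes were below 0 and the median log2 fold change was -0.089. The summed level of 6 cardiac markers was 60.2 to 103 CPM in hetX753 libraries and 6.65 to 101 CPM in hetL1002P libraries, against 9.50 to 30.8 CPM in WT libraries. The myosin Myh6 gave 2.59 to 99.7 CPM of it and Tnnt2 2.96 to 5.58 CPM, while Nppb was at 0 in every library and Nppa, Ryr2 and Tnni3 reached at most 0.258, 0.31 and 0.332 CPM. Smooth muscle markers (7 genes) summed to 246 to 418 CPM in hetX753, 252 to 271 CPM in hetL1002P and 256 to 311 CPM in WT libraries. Fibroblast markers (7 genes) summed to 540.1 to 701 CPM in hetX753, 489 to 1199 CPM in hetL1002P and 768 to 918 CPM in WT libraries, so the hetX753 values lay below WT as those of Tpm2 did, and the hetL1002P values spread on either side. Tendon markers (6 genes) summed to 114 to 219.7 CPM, 148 to 268 CPM and 202 to 206 CPM, and macrophage markers (5 genes) to 23.9 to 32.4 CPM, 21.1 to 58.6 CPM and 25.1 to 47.7 CPM, in hetX753, hetL1002P and WT libraries. The part of these cells in the levels of the members was not tested.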

How the data were processed

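The authors' deposited table holds whole-number read counts per gene symbol for 9 libraries. Per the submitters' processing notes, TopHat2 2.0.14, Bowtie2 2.2.6 and featureCounts 1.4.6 were used with mm10. Per the labels' protocols the libraries were TruSeq v2 from total RNA. Strand setting and annotation: not given in the sources used here.

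Counts were fitted as deposited in edgeR 4.0.16 (R 4.3.3): filterByExpr on genotype, TMM factors, one robust quasi-likelihood model with genotype as its only term over the 9 libraries (6 residual degrees of freedom), and Benjamini-Hochberg adjustment over 12989 genes at 0.05. CPM are TMM-scaled. SE and 95% intervals come from the fit. Lengths and loci are from a GENCODE annotation of GRCm38, which gave length and GC content for 94.55% of symbols. DESeq2 1.42.0, limma 3.58.1, other scalings and filters, the replicate block, a length and GC trend, and left-out libraries were alternatives. The fit was tested on simulated data. Library totals were 19768149 to 33977252, which limits precision for low genes such as Bub1b.

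The 9 members are named in every comparison. From each list up to 3 genes of smallest p in each comparison are named, and for likeness the 3 genes of highest r. The members and lists were chosen with earlier results of these data known. Libraries of the same number in hetL1002P and WT deviated together, with r of 0.285, 0.36 and 0.516, against -0.454 to 0.198 for different numbers. Library 3 of both genotypes lay apart on the first principal component. The labels do not explain the numbers, so the main model held no replicate block and the block was an alternative. For libraries of the same number in hetX753 and WT the values were 0.0677, 0.164 and -0.144, and for hetX753 and hetL1002P -0.16, 0.00565 and -0.279, which show no pairing. Replicate libraries of 1 genotype differed beyond sampling noise, with chi-square per degree of freedom of 14.3 to 65.6.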

Additional observations from a re-analysis of the deposited data

How the results depend on the processing

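Each fold change was recomputed under 22 alternatives. In hetX753 against WT, Tnnc2, Tnni2, Tnnt3 and Tpm2 stayed below 0 under all 22, as they did in hetL1002P against WT. Counts of members called in hetX753 against WT moved from 0 to 2 with DESeq2 (Tnnc2 and Tpm2), to 1 without WT 3 and hetL1002P 3 together, and to 0 to 1 over the left-out libraries (1, Tnnc2, without hetL1002P replicate 3). For hetL1002P against WT the replicate block on 2 genotypes called 3 (Tnnc2, Tnni2 and Tnnt3), while the block on all 9 libraries called 0. The block changed no other member's call. The lowest level of any member in any library was 43.0 CPM.

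Of all genes, 66 were called in hetX753 against WT. This became 31 with library totals, 660 with DESeq2, 254 with 2 genotypes alone, 106 with the replicate block on those, 140 with the block and the length and GC trend removed, 340 without WT 3 and hetL1002P 3, and 0 to 669 leaving out each library, the lowest without WT 1 and the highest without hetL1002P 3. In hetL1002P against WT, 0 became 2 with no filter, 5 with DESeq2, 2 with limma-voom, 635 with the block on 2 genotypes, 1 with the length and GC trend removed, 1 with the block added, 2 without WT 3 and hetL1002P 3, and 0 to 1 leaving out each library. In hetX753 against hetL1002P, 15 became 38 with no filter, 138 with DESeq2, 5 with 2 genotypes alone, 2 with the block on those, 31 with the block on 9 libraries, 42 with the length and GC trend removed, 51 with the block added, 95 without WT 3 and hetL1002P 3, and 0 to 19 leaving out each library, the lowest without hetL1002P 1 and the highest without hetL1002P 3. The cause of these moves was not tested.

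Log2 fold changes turned in direction for slow genes, for Tpm1 and, between the carriers, for fast troponins, none of them called. In hetX753 against WT, library totals, which shift the median gene by 0.12, gave 0.12 for Tnni1, 0.046 for Tnnt1 and 0.051 for Tpm1. The trend removal gave 0.13 for Tnnc1, 0.31 for Tnni1, 0.24 for Tnnt1 and 0.078 for Tpm1, and with the replicate block added 0.24, 0.44, 0.33 and 0.053. limma-voom gave 0.20 for Tnni1 and 0.10 for Tnnt1. The block on 2 genotypes gave 0.19 for Tnni1 and 0.10 for Tnnt1, and on 9 libraries 0.17 and 0.047. Without WT 3 and hetL1002P 3, Tnni1 was 0.25, Tnnt1 0.076 and Tpm1 0.073. For hetL1002P against WT, the block on 9 libraries gave 0.0077 for Tnni1, 0.075 for Tnnt1 and 0.021 for Tpm3, the trend removal 0.073 for Tnni1 and 0.0795 for Tnnt1, and the block with trend removal 0.16 for Tnnc1, 0.27 for Tnni1, 0.32 for Tnnt1 and 0.046 for Tpm3. Between the carriers, leaving out WT 3 and hetL1002P 3 gave 0.018 for Tnnc2, 0.0067 for Tnni2 and 0.0094 for Tnnt3, and the block on 9 libraries gave -0.028 for Tnnt1.

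Leaving out each library in turn, none of the following was called except Tnnc2 as given above. The fold changes of hetX753 against WT ranged from -0.76 to -0.46 for Tnnc2, -0.73 to -0.38 for Tnni2, -0.55 to -0.33 for Tnnt3 and -0.77 to -0.48 for Tpm2, and those of hetL1002P against WT from -0.68 to -0.27, -0.61 to -0.22, -0.47 to -0.21 and -0.43 to -0.17 for the same genes. For the other members, hetX753 against WT ranged from -0.69 to 0.0696 for Tnnc1, -0.45 to 0.28 for Tnni1, -0.52 to 0.30 for Tnnt1, -0.35 to 0.072 for Tpm1 and -0.14 to 0.70 for Tpm3. In hetL1002P against WT the ranges were -0.80 to 0.032, -0.68 to 0.13, -0.61 to 0.25, -0.029 to 0.38 and -0.55 to 0.28 for the same genes. Between the carriers they were -0.30 to 0.55 (Tnnc1), -0.29 to 0.021 (Tnnc2), -0.23 to 0.67 (Tnni1), -0.25 to 0.0090 (Tnni2), -0.35 to 0.52 (Tnnt1) and -0.19 to 0.012 (Tnnt3). The cause was not tested.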
